A study of Mus musculus with 15 samples.

Results

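The genes described here are those of the fibroblast growth factor (FGF) receptors and of a set of their ligands: the 4 receptors Fgfr1, Fgfr2, Fgfr3 and Fgfr4, and the 5 ligands Fgf1, Fgf2, Fgf7, Fgf10 and Fgf18. They were taken by symbol from the deposited expression table, which listed all 9 of them among its 17271 genes. FGF ligands are secreted proteins that bind cell-surface receptor tyrosine kinases together with heparan sulfate, and the bound receptor signals through the adaptor Frs2 to the Ras-MAP kinase pathway. Epithelial and mesenchymal cells splice Fgfr2 into different isoforms, and ligands made in the mesenchyme, such as Fgf7 and Fgf10, signal to the epithelial isoform. In the mammary gland this exchange is needed for the early bud and for ductal growth, and amplified or activated FGF receptor genes are known in breast cancers.

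The series measured messenger RNA by sequencing in 15 mouse mammary tumours grown in vivo. All 15 samples were of strain Balbc with genotype p53-NULL, so every group lacked p53, and there was no p53-intact or normal-tissue control. The tumours belonged to 4 models: 2151R with 4 samples, T11 with 1, 2225L with 2 and 2208L with 8. The series text spells 2151R and 2225L as 215R and 225L. The 2208L titles held 4 samples named PBS, 3 named 3day nt and 1 with the prefix ROSEN. In 2225L, replicate 1 had the prefix CP of most samples and replicate 2 the prefix ROSEN. Leaving out either one therefore also leaves a single prefix in 2225L, and prefix and tumour cannot be told apart there. Of the 2151R titles, which carried 4 different terms, only those of replicates 3 and 4 held NT. No age, treatment or meaning of any of these terms is given in the labels used here. The fits below among samples titled NT, nt or PBS left out 2151R replicates 1 and 2 and 2208L replicate 1. Replicate 2 had the highest 2151R value of Fgf2, Fgf7, Fgf10 and Fgf18. The sources used here do not say whether samples of a model were separate mice. Each p-value therefore sets a difference only against the spread between these samples, which may be technical. In comparisons between models that spread was shared over all 4 models, and 2208L, with 8 samples, weighed most in it. The library numbers in the titles fell into separate ranges for 2151R, for the PBS samples and for the 3day nt samples, so these groups and their library ranges cannot be told apart.

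Each value is a log2 ratio of a gene to an unstated reference of its own: 44.6% of genes stood at exactly 0 in at least 1 sample. A step of 1 log2 unit is a doubling, values of the same gene can be compared between samples, and the levels of different genes cannot be ranked. The labelled tissue was checked against 9 epithelial markers. Their mean level was 0.21 to 1.36 in 2208L and 2.30 to 2.33 in 2225L, against -4.42 to -3.38 in 2151R and -8.39 in T11, so 2151R and T11 stood low for epithelial markers. Of the 9, 8 were lower in 2151R than in 2208L and the basal keratin gene Krt5 was higher by 4.73 log2 units. Skeletal muscle markers were high in 3 samples (6.85 in 2151R replicate 3, 10.18 in 2208L replicate 6 and 9.59 in 2208L replicate 8). Tumour tissue holds host cells as well as tumour cells, and in bulk RNA fewer cells of a type and less RNA per cell cannot be told apart.

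Fgfr2 was highest in 2225L, intermediate in 2151R and lowest in 2208L, Fgfr3 was high in 2225L alone among the tested models, and Fgfr4 was high in 2208L. Among the ligands, Fgf2 was lowest in 2225L and highest in the single T11 tumour, while the means of Fgf7, Fgf10 and Fgf18 were higher in 2151R than in 2208L. Fgf7 and Fgf10 values overlapped between these 2 models, and none of the 3 calls held in every alternative fit. In the limma model with Benjamini-Hochberg adjustment over all 17271 genes, 5 of the 9 genes passed an adjusted p of 0.05 between 2151R and 2208L, where 48.8% of all genes did: 4 were higher in 2151R, beside 26.1% of all genes, and 1 was lower, beside 22.7%. Between 2225L and 2208L 5 of 9 passed, beside 32.9%, with 3 higher in 2225L (15.6% of all genes) and 2 lower (17.3%). Between 2225L and 2151R 3 of 9 passed, beside 48.6%, with 2 higher in 2225L (22.8%) and 1 lower (25.8%). These tumour models differ at so many genes that a count of this size says little about the FGF genes as a set, and the results lie in which gene differed and by how much. The median difference over the 9 genes was 0.23, 0.98 and -0.62 log2 units in those 3 comparisons, beside 0.10, -0.04 and -0.10 over all genes.

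**Figure D1:**
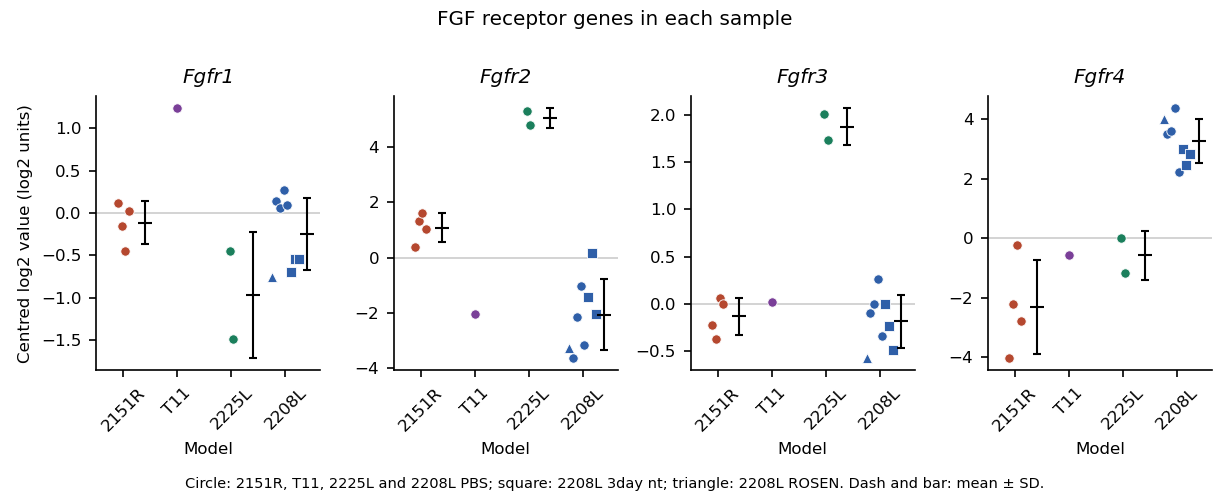
Log2 value (relative to each gene's own reference) of the 4 receptor genes in each of the 15 tumours, by model; each point is 1 sample, the dash and bar beside them are the model's mean and SD, and the vertical scale differs between panels. Fgfr2 lies at 4.79 and 5.30 in 2225L, Fgfr3 at 1.74 and 2.01 there, and Fgfr4 lies above 2.2 in all 8 samples of 2208L and at or below 0 in the other 7 tumours.

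Fgfr2 encodes the receptor whose epithelial isoform binds Fgf7 and Fgf10. Its log2 values in 2225L were 5.30 and 4.79. In 2151R they were 0.38, 1.34, 1.60 and 1.03, and in 2208L they ran from -3.62 through a median of -2.08 to 0.15. T11 stood at -2.02. The 3 tested models did not overlap: both 2225L samples lay above all of 2151R, and all of 2151R above all of 2208L, whose highest sample was 3day nt replicate 7. The difference between 2225L and 2208L was 7.10 log2 units (SE 0.78, adjusted p = 2.2e-05), with a 95% interval of 5.42 to 8.78. Between 2151R and 2208L it was 3.14 (SE 0.60, adjusted p = 0.00076), and between 2225L and 2151R it was 3.96 (SE 0.85, adjusted p = 0.00196). The last of these missed the threshold, with an adjusted p of 0.0514 at 4.03, when samples were weighted by their fit. The T11 value was 2.40 units below the lowest 2151R sample and inside the range of 2208L, so the models low in epithelial markers did not share an Fgfr2 level.

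The table holds 1 value per gene and so cannot separate the epithelial and mesenchymal Fgfr2 isoforms. Of 5 regulators of that splicing choice, 3 passed as higher and 2 as lower in 2151R against 2208L, beside 26.1% and 22.7% of all genes. The 2 lower were Esrp1 (-6.68 log2 units, SE 0.18, adjusted p = 1.4e-11) and Esrp2 (-6.45, SE 0.17, adjusted p = 1.2e-11), which promote the epithelial isoform. Both were also higher in 2225L than in 2151R, by 6.45 and 5.91 units. Neither passed between 2225L and 2208L, where their differences were -0.23 and -0.54, but Esrp2 passed as lower in 2225L without 2208L replicate 6 (-0.61, adjusted p = 0.0281) and without the 3 muscle-high samples (-0.66, adjusted p = 0.0256). T11 stood at -13.37 for Esrp1 and -8.47 for Esrp2. Mbnl1, a broadly expressed splicing regulator, was lower in 2225L than in 2208L by 1.25 units. It was higher in 2151R than in 2208L by 0.50, a call that was lost without 2151R replicate 1 (0.41, adjusted p = 0.0624). So Esrp1 and Esrp2 were far lower in 2151R, with intermediate Fgfr2, than in 2225L, with high Fgfr2, and in 2208L, with low Fgfr2.

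Fgfr3, a receptor that limits bone growth and is mutated in bladder cancers, had log2 values of 2.01 and 1.74 in 2225L. In 2151R its values were -0.22, -0.37, 0.06 and 0.00, in T11 0.01, and in 2208L it ran from -0.57 through a median of -0.17 to 0.26. Both 2225L samples lay above the other 13 tumours, which formed a single overlapping range. Fgfr3 was higher in 2225L than in 2208L by 2.06 log2 units (SE 0.22, adjusted p = 1.5e-05) and than in 2151R by 2.01 (SE 0.24, adjusted p = 1.5e-05). The difference between 2151R and 2208L was 0.05 with a 95% interval of -0.31 to 0.41 (adjusted p = 0.821), so differences of 1 log2 unit in either direction lay outside the interval.

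Fgfr4, the receptor that binds Fgf15 and its human counterpart with the co-receptor beta-klotho in liver, was higher in all 8 samples of 2208L than in the other 7 tumours. Its log2 values in 2208L ran from 2.24 through a median of 3.27 to 4.37. In 2151R they were -4.01, -2.20, -0.23 and -2.76, in 2225L 0.00 and -1.15, and in T11 -0.56. Fgfr4 was lower in 2151R than in 2208L (difference -5.56 log2 units, SE 0.59, adjusted p = 4.8e-06) and lower in 2225L than in 2208L (difference -3.84, SE 0.76, adjusted p = 0.00197). The second call was lost when samples were weighted by their fit (-4.18, adjusted p = 0.102). Between 2225L and 2151R the difference was 1.73 (adjusted p = 0.105), and it passed without 2151R replicate 3, one of the samples high in muscle markers (2.42, adjusted p = 0.0116).

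Fgfr1, a receptor gene amplified in a share of human breast cancers, varied less between the tested models. Its log2 values were 0.12, -0.15, -0.45 and 0.03 in 2151R, -0.44 and -1.49 in 2225L, and -0.76 to 0.27 in 2208L with a median of -0.24. T11 was the highest tumour at 1.23. It lay 1.12 units above the highest 2151R sample and 0.97 above the highest 2208L sample, with 1 sample and so no test. None of the 3 tested comparisons passed, with differences of 0.13, -0.72 and -0.85 log2 units for 2151R against 2208L, 2225L against 2208L and 2225L against 2151R. Both 2225L comparisons passed without 2225L replicate 1 (-1.24, adjusted p = 0.0328, and -1.38, adjusted p = 0.0171), so they rested on which of its 2 tumours was kept.

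The sequences upstream of the 3 receptors that separated the models are shown because their levels differed by up to 7.10 log2 units between tumours of 1 strain. Each is the 250 bases before the RefSeq transcription start on the gene's own strand in GRCm38.p6, the patch release of the mm10 build named in the submitters' processing notes. Capitals mark GC boxes (GGGCGG or its complement CCGCCC), the motif bound by Sp-family factors, searched on both strands.
Fgfr2, chr7:130266809-130267058, minus strand: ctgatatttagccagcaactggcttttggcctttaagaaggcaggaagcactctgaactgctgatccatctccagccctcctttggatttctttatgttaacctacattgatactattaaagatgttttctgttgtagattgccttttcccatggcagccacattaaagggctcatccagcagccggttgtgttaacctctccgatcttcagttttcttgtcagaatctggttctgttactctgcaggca
Fgfr3, chr5:33721474-33721723, plus strand: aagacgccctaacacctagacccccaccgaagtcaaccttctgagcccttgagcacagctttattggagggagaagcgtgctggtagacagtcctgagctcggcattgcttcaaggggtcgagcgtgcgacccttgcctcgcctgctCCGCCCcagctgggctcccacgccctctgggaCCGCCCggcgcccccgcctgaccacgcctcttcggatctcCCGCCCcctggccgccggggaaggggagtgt
Fgfr4, chr13:55152568-55152817, plus strand: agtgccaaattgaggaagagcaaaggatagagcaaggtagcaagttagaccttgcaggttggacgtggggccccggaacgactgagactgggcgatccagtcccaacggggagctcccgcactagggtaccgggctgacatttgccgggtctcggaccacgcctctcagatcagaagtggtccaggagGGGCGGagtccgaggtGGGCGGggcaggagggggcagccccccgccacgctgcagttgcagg
The Fgfr2 window held no GC box and 44.0% G and C. The Fgfr3 window printed held 3 GC boxes and 66.8% G and C, and a second Fgfr3 start in the RefSeq set (chr5:33722056-33722305, not printed) had 2 and 72.8%. The Fgfr4 window held 2 GC boxes and 64.0% G and C. Each window belongs to 1 RefSeq start, and other starts were not examined for Fgfr2 and Fgfr4. In the GENCODE annotation Fgfr2, on the minus strand, begins at 133123350, upstream of its window. Fgfr3 begins there at 33721674 and Fgfr4 at 55152640, each inside its printed window. Both Fgfr4 GC boxes and the last Fgfr3 GC box printed lie downstream of those GENCODE starts. A GC box occurred in 32.7% of all 32851 promoter windows of this length, whose median G and C content was 52.4%. Of the 9 genes, 7 had a window in the RefSeq set, and CACCTG or CAGGTG, the E-box read by Zeb and Snail repressors, was in none of their 8 windows, beside 17.2% of all windows. A match or its absence describes these letters and nothing about the binding of a factor.

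The differences of the genes lying beside each receptor were set beside its own, over its 20 nearest genes in the table, 10 on each side. Fgfr2 lies on chromosome 7 at 130162451 to 130266808 on the minus strand. In 2225L against 2208L its difference was 7.10, while its neighbours ran from -1.22 to 0.99 with a median of -0.18. In 2151R against 2208L its difference was 3.14, inside the -0.50 to 6.31 (median 0.18) of its neighbours. In 2225L against 2151R it was 3.96, above the -5.31 to 0.92 (median -0.45) of its neighbours, whose range reached farther from 0 in the other direction. For Fgfr4, on chromosome 13 at 55152818 to 55168759, the difference in 2151R against 2208L was -5.56, beside -0.91 to 3.40 (median 0.43) over its neighbours, and in 2225L against 2208L it was -3.84, beside -2.24 to 1.39 (median -0.49). For Fgfr3, on chromosome 5 at 33721724 to 33737068, the difference in 2225L against 2208L was 2.06, inside the -1.49 to 3.68 (median 0.20) of its neighbours, and in 2225L against 2151R it was 2.01, beside -2.21 to 1.79 (median -0.07). Fgfr1 lies on chromosome 8 at 25518759 to 25575718, and its differences lay inside the ranges of its neighbours in all 3 comparisons between models, as in 2225L against 2151R (-0.85, beside -2.81 to 2.16).

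**Figure D2:**
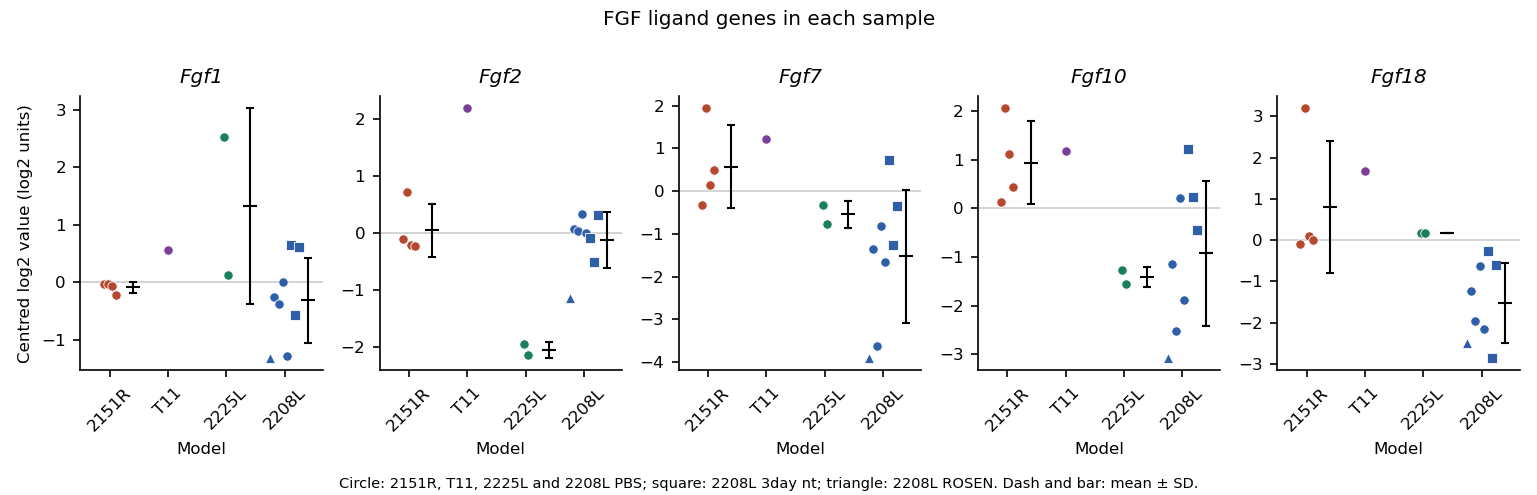
Log2 value (relative to each gene's own reference) of the 5 ligand genes in each of the 15 tumours, by model; each point is 1 sample, the dash and bar beside them are the model's mean and SD, and the vertical scale differs between panels. Fgf2 is lowest in 2225L (-2.15 and -1.95) and highest in T11 (2.19), and Fgf7, Fgf10 and Fgf18 reach their highest 2151R value in the same tumour, replicate 2.

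Fgf2, a broadly acting ligand without a classical secretion signal, had log2 values of -1.95 and -2.15 in 2225L. In 2151R they were -0.10, 0.73, -0.20 and -0.23, and in 2208L they ran from -1.13 through a median of 0.02 to 0.33. The single T11 tumour stood at 2.19. Both 2225L tumours lay below all others, and T11 lay 1.46 units above the highest 2151R and 1.86 above the highest 2208L sample. Fgf2 was lower in 2225L than in 2208L (difference -1.93, SE 0.35, adjusted p = 0.00103) and than in 2151R (difference -2.10, SE 0.38, adjusted p = 0.000601). The difference between 2151R and 2208L was 0.17 (adjusted p = 0.632). Fgf2 lies on chromosome 3 at 37348477 to 37410106 and overlaps Nudt6 on the opposite strand, and the sources used here do not say whether counting used the strand. Nudt6 was lower in 2225L than in 2151R (difference -0.81 log2 units, adjusted p = 0.00319), and its part in the Fgf2 result was not tested. Of the 20 genes nearest Fgf2 in the table, 11 were lower and 1 higher in 2225L than in 2151R (median -1.0). The shares of all genes were 25.8% and 22.8%. Against 2208L, 5 were lower and 2 higher in 2225L (median -0.44), beside 17.3% and 15.6%. A part of the chromosome position in the Fgf2 result was not tested.

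Fgf7 and Fgf10, mesenchymal ligands of the epithelial Fgfr2 isoform, varied widely within 2208L. Fgf7 values in 2208L ran from -3.90 through a median of -1.30 to 0.72, and in 2151R they were -0.31, 1.94, 0.15 and 0.49. Fgf10 values in 2208L ran from -3.08 through -0.80 to 1.23, and in 2151R they were 0.14, 2.06, 1.12 and 0.44. For both genes the lowest 2208L tumour was replicate 1 (prefix ROSEN) and the highest was replicate 6 (3day nt), and the models overlapped. The mean of Fgf7 was higher in 2151R by 2.09 log2 units (SE 0.76, adjusted p = 0.0364) and that of Fgf10 by 1.86 (SE 0.72, adjusted p = 0.0471). The Fgf7 call was lost without any one of 2151R replicates 2 (1.63), 3 (2.23) and 4 (2.12) or 2208L replicates 3 (1.79) and 5 (2.07). The Fgf10 call held in 3 of 12 such fits, those without 2208L replicate 4, 6 or 7, and was lost in the other 9, at 1.49 without 2151R replicate 2. Among samples titled NT, nt or PBS both calls were lost, at 1.51 (adjusted p = 0.207) for Fgf7 and 1.40 (adjusted p = 0.239) for Fgf10.

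In 2225L the Fgf7 values were -0.32 and -0.76 and the Fgf10 values -1.27 and -1.55. These lay below all 4 samples of 2151R for both genes and inside the 2208L range. None of the differences passed: Fgf7 differed by 0.98 from 2208L and by -1.11 from 2151R, and Fgf10 by -0.48 and -2.35. The Fgf10 difference from 2151R, at an adjusted p of 0.0732, passed when these 2 models were fitted alone (adjusted p = 0.0166). T11 stood at 1.21 for Fgf7 and 1.18 for Fgf10, inside the 2151R range for both.

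Fgf18, a ligand of Fgfr3 in cartilage and of the other receptors elsewhere, had log2 values of -0.10, 3.19, 0.09 and 0.00 in 2151R. In 2208L they ran from -2.85 through a median of -1.60 to -0.26. All 8 samples of 2208L lay below the other 7 tumours, and replicate 2 of 2151R stood well above its other samples. Fgf18 was higher in 2151R by 2.32 log2 units (SE 0.65, adjusted p = 0.00924), and by 1.52 (adjusted p = 0.0296) without that replicate. The call was lost among samples titled NT, nt or PBS (1.43, adjusted p = 0.102). The 2225L values of 0.17 and 0.18 lay above all of 2208L without passing the test (1.70, adjusted p = 0.137), and T11 at 1.67 lay 1.93 units above the highest 2208L sample.

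Fgf1, a ligand that binds all receptor isoforms, had log2 values of 2.53 and 0.13 in 2225L, which lay farther apart than any 2 of the tested models' means. In 2151R its values were -0.03, -0.03, -0.07 and -0.23, in T11 0.57, and in 2208L -1.32 to 0.65 with a median of -0.32. Fgf1 passed as higher in 2225L than in 2208L by 1.65 log2 units (SE 0.58, adjusted p = 0.0446). Without 2225L replicate 1 the difference was 0.44 (adjusted p = 0.622) and without replicate 2 it was 2.85 (adjusted p = 0.00527). The call also went with any one of 2208L replicates 1, 2, 3, 4, 5 or 7 left out (adjusted p = 0.0542 to 0.0642). Against 2151R it was 1.42 (adjusted p = 0.0816), and 2.62 (adjusted p = 0.00786) without 2225L replicate 2. With the library prefix as a covariate it also passed (2.22, adjusted p = 0.00475).

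**Figure D3:**
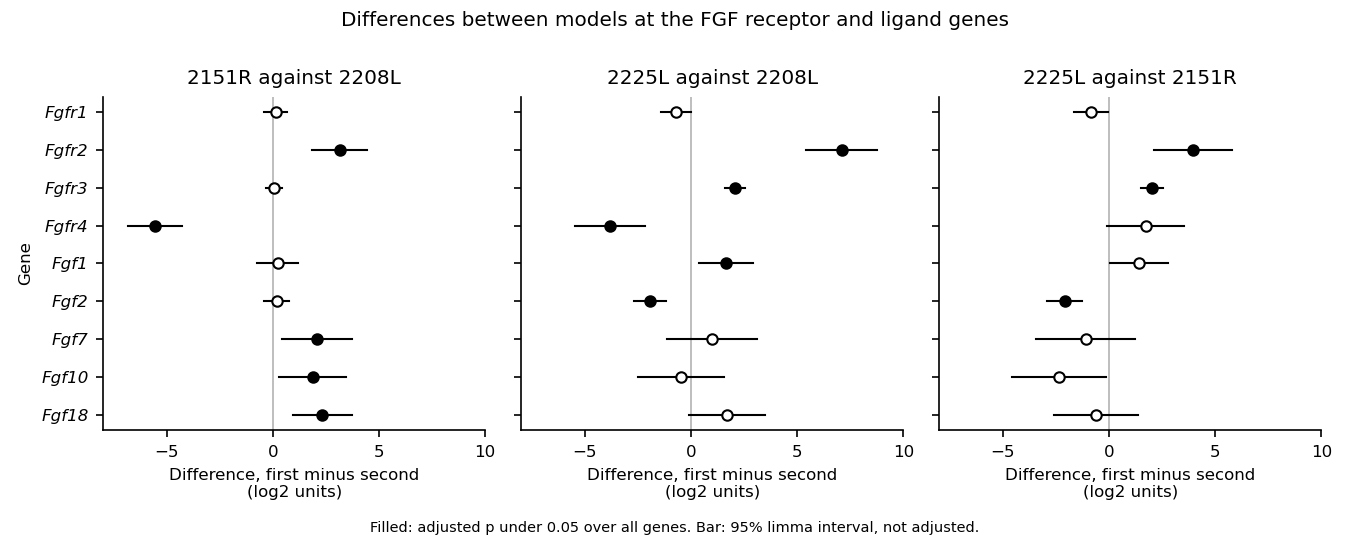
Difference in mean log2 value between models for the 9 genes, with 95% intervals from the limma model of all 15 samples; filled points passed an adjusted p of 0.05. The Fgfr2 difference of 7.10 in 2225L against 2208L and the Fgfr4 difference of -5.56 in 2151R against 2208L lie farthest from 0.

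Counted without the model, 3 of the 9 genes did not overlap between 2151R and 2208L, beside 38.8% of all genes. Between 2225L and 2208L 5 of 9 did not overlap, beside 31.7%, and between 2225L and 2151R 6 of 9, beside 62.4%. T11 lay at least 1 log2 unit above the 2208L range for 2 of the 9 genes (Fgf2 and Fgf18), beside 10.4% of all genes, and below it for Fgfr4, beside 8.09%. It lay as far above the 2151R range for Fgfr1 and Fgf2, beside 8.88%, and below it for Fgfr2, beside 6.43%. T11 thus shared a low Fgfr4 with 2151R and 2225L and a low Fgfr2 with 2208L, and its high Fgf2 and Fgfr1 values rest on 1 tumour.

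Markers of host cells were set beside the ligands, and their association was not tested. Fibroblast markers had a mean level of 0.46 to 1.35 in 2151R, 0.81 in T11, -0.63 to -0.59 in 2225L and -1.31 to 0.94 in 2208L, and 4 of 10 were higher in 2151R than in 2208L. The lowest 2208L tumour for these markers was replicate 1 and the highest replicate 6, as for Fgf7 and Fgf10. Adipocyte markers ran from 2.12 to 4.90 in 2151R, highest in replicate 2, and from -2.90 to 2.74 in 2208L, with 3 of 8 higher in 2151R. That count was 1 without 2151R replicate 2 or 3, 5 without 2208L replicate 4, 6 or 8, and 7 with sample weights. Marker and ligand levels did not pair in every tumour: 2208L replicate 7 stood at 2.21 for adipocyte markers, with the lowest Fgf18 value of all, -2.85. Of 8 endothelial markers 7 were higher in 2151R, of 8 macrophage markers 6 (median difference 1.36) and of 8 T cell markers 2. In this comparison 26.1% of all genes were higher in 2151R, so the T cell count lay near that share. Among samples titled NT, nt or PBS the counts were 2 of 10 for fibroblast, 0 of 8 for adipocyte, 1 of 8 for endothelial, 4 of 8 for macrophage and 0 of 8 for T cell markers. Because the values are ratios to an unstated reference, a marker that is absent cannot be recognised, and the part of these cells in the Fgf7, Fgf10 and Fgf18 results was not tested.

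**Figure D4:**
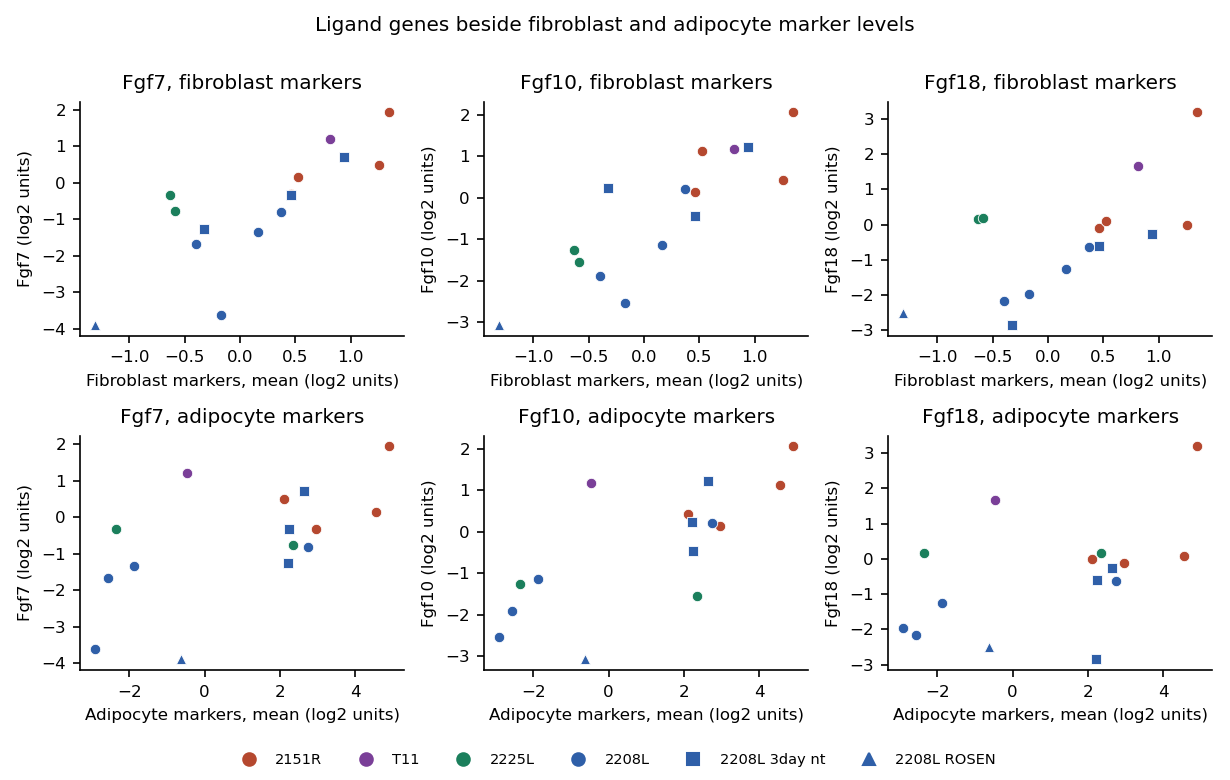
Log2 value of Fgf7, Fgf10 and Fgf18 (vertical axis) against the mean log2 level (horizontal axis) of 10 fibroblast markers in the upper row and 8 adipocyte markers in the lower row, in the 15 tumours, coloured by model. Replicate 1 of 2208L lies lowest on the fibroblast axis at -1.31, with Fgf7 at -3.90, and replicate 6 of 2208L lies at 0.94, with Fgf7 at 0.72.

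Within 2208L, the PBS and 3day nt tumours differed at 1 of the 9 genes, beside 34% of all genes: 1 was higher in PBS, beside 17.4%, and none lower, beside 16.5%. Fgfr1 values were 0.14, 0.06, 0.27 and 0.10 in the PBS tumours and -0.69, -0.54 and -0.54 in the 3day nt tumours, with no overlap. Fgfr1 was higher in PBS by 0.73 log2 units (SE 0.10, adjusted p = 0.00534), and 44.8% of all genes had no overlap in this comparison. The call held with each single sample left out. Replicates 6 and 8, both 3day nt, were the samples high in muscle markers, and without both the difference was 0.69 (adjusted p = 0.16). The other 8 differences ran from -1.68 (Fgf10, adjusted p = 0.105) to 0.65 (Fgfr4, adjusted p = 0.309), and those 2 passed without PBS replicates 4 (-2.20, adjusted p = 0.0336) and 5 (1.05, adjusted p = 0.034).

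Of 13 other secreted FGF ligands on the list, the table held Fgf9 and Fgf15, and of 4 intracellular homologues, Fgf11 and Fgf13. Fgf15, an intestinal hormone of bile acid control that acts through Fgfr4, had values of 1.84 to 2.58 in 2151R, 0.00 to 3.50 in 2208L, -1.77 and 0.82 in 2225L and -5.03 in T11. It was lower in 2225L than in 2151R (difference -2.68, adjusted p = 0.0189), a call lost without 2225L replicate 1 (-1.39). The Fgf15 call was also lost among samples titled NT, nt or PBS (-2.68, adjusted p = 0.0692) and with sample weights (-2.63, adjusted p = 0.215). Fgf9, a ligand of the mesenchymal receptor isoforms, passed no test with all samples, with differences of 0.84 and 1.73 from 2208L in 2151R and 2225L. Neither Fgf11 nor Fgf13, which bind voltage-gated sodium channels inside cells, passed between models. Without the 3 muscle-high samples, Fgf9 passed as higher in 2225L than in 2208L (2.36, adjusted p = 0.0283), and Fgf13 as lower in 2225L than in 2208L (-1.78, adjusted p = 0.00637) and than in 2151R (-1.22, adjusted p = 0.0407). Fgf13 was lower in PBS than in 3day nt tumours (difference -2.76 log2 units, adjusted p = 0.0427), a difference of -0.73 (adjusted p = 0.569) without replicates 6 and 8. The call was also lost without any one sample but replicate 7, and its highest values were those of the muscle-high tumours: 4.23 and 3.67 in 2208L replicates 6 and 8 and 1.86 in 2151R replicate 3.

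Co-receptors and FGF-binding proteins differed in both directions. The counts of this and the next lists stand beside shares of all genes: 26.1% higher and 22.7% lower in 2151R against 2208L. In 2225L against 2208L the shares were 15.6% and 17.3%, and in 2225L against 2151R 22.8% and 25.8%. A count near these shares is no result about a list. Of the 14 measured in 2151R against 2208L, 6 passed as higher and 6 as lower (median difference 1.14). In 2225L against 2208L 4 passed as higher and 3 as lower (median -0.17), and without 2225L replicate 2 these counts were 1 and 4. In 2225L against 2151R 5 passed as higher and 4 as lower (median -0.28). Flrt2, a membrane protein that binds FGF receptors, was higher in 2151R than in 2208L by 4.01 log2 units (SE 0.56, adjusted p = 5.8e-05) and stood at 4.11 in T11. Gpc4, a heparan sulfate proteoglycan, was lower in 2151R than in 2208L (difference -3.85, SE 0.31, adjusted p = 3.3e-07), with values of -3.97 to -2.44 beside -0.20 to 1.17 in 2208L. Gpc1, another glypican, had its highest values in 2225L (1.27 and 1.53) and was higher there than in 2208L by 4.11 (SE 0.33, adjusted p = 1.4e-06).

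Among 10 heparan sulfate enzymes in 2151R against 2208L, 3 passed as higher and 3 as lower (median difference 0.08). In 2225L against 2208L 3 passed as lower and none as higher (median -0.22), and 1 was lower without 2225L replicate 2. In 2225L against 2151R 2 passed as higher and 5 as lower (median -0.48), and 3 and 3 without 2225L replicate 1. Hs3st1, a sulfotransferase, was lower in 2151R (difference -3.59, SE 0.17, adjusted p = 1.3e-09), and T11 stood at -4.58 beside 1.80 to 2.50 in 2208L. Its difference in 2225L against 2208L was -0.82 (adjusted p = 0.0104), and -0.70 (adjusted p = 0.0927) without 2225L replicate 2. Ext1, a heparan sulfate polymerase, was higher in 2151R by 2.01 (SE 0.28, adjusted p = 5.5e-05). Sulf1, which removes sulfate groups and so limits FGF signalling, was lower in 2225L than in 2208L (difference -1.50, adjusted p = 0.0191), a call lost without either 2225L sample (-1.71 without replicate 1, -1.28 without replicate 2).

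Adaptors showed smaller differences. Of 8 in 2151R against 2208L, 2 passed as higher and 1 as lower (median 0.13), with 2 lower when any one of 2208L replicates 1, 6 and 7 was left out. Between 2225L and 2208L 2 passed as higher in 2225L (median -0.01), and none without 2225L replicate 2. In 2225L against 2151R 3 passed as higher and 2 as lower (median -0.15), and 2 and 0 without that tumour. Frs2, the adaptor that FGF receptors phosphorylate, was higher in 2151R by 1.10 log2 units (SE 0.29, adjusted p = 0.0066), and lower in 2225L than in 2151R (difference -1.50, adjusted p = 0.00856). The second call was lost without 2225L replicate 2 (-0.81, adjusted p = 0.176). Gab1, a docking protein, was lower in 2151R than in 2208L (difference -1.14, SE 0.19, adjusted p = 0.000228). Sos1, a Ras exchange factor, was higher than in 2208L in 2151R (0.76, adjusted p = 0.00356) and 2225L (0.88, adjusted p = 0.0113), the latter lost without 2225L replicate 2 (0.83, adjusted p = 0.0769).

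Feedback inhibitors and response genes of the pathway did not move as a block. Of 10 feedback inhibitors in 2151R against 2208L, 5 passed as higher and 2 as lower (median 0.54), and 2 and 1 among samples titled NT, nt or PBS. In 2225L against 2208L 3 passed as lower (median -0.33), and none without 2225L replicate 2. In 2225L against 2151R 1 passed as higher and 5 as lower (median -0.64). Spred3, an inhibitor of Ras-MAP kinase signalling, was higher in 2151R than in 2208L by 1.69 (SE 0.42, adjusted p = 0.00441). It was lower in 2225L than in 2208L (difference -2.18, adjusted p = 0.00739), a call lost without 2225L replicate 2 (-1.70, adjusted p = 0.107). Dusp4, a MAP kinase phosphatase, was lower in 2151R than in 2208L (difference -1.79, SE 0.54, adjusted p = 0.0137). Both were higher in PBS than in 3day nt tumours of 2208L, Dusp4 by 2.19 (adjusted p = 0.00378) and Spred3 by 1.49 (adjusted p = 0.00421). Without the 2 muscle-high 3day nt tumours the differences were 1.57 (adjusted p = 0.0572) and 1.41 (adjusted p = 0.135). Among samples titled NT, nt or PBS the 2151R against 2208L calls of Mbnl1, Frs2, Sos1, Spred3 and Dusp4 were lost, with adjusted p values from 0.0599 for Spred3 to 0.125 for Dusp4. With sample weights the 2225L against 2208L calls of Hs3st1, Sulf1, Sos1, Spred3 and Fosl1 were lost, with adjusted p values from 0.0527 for Spred3 to 0.309 for Sos1.

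Of 8 response genes in 2151R against 2208L, 2 passed as higher and 5 as lower (median -1.04). For 2225L against 2208L 4 passed as lower (median -0.63), and 2 without 2225L replicate 2, with 1 higher. Fosl1, an AP-1 subunit induced by MAP kinase signalling, stood at 5.31 to 5.73 in 2151R and 3.58 in T11, beside -3.06 to 0.00 in 2208L and -2.83 and -7.15 in 2225L. It was higher in 2151R than in 2208L by 7.50 log2 units (SE 0.75, adjusted p = 2.8e-06). Its lower level in 2225L than in 2208L (difference -2.99, adjusted p = 0.0311) was lost without 2225L replicate 2 (-0.83, adjusted p = 0.594) and was -5.15 without replicate 1. Ier3, an immediate early gene, was lower than in 2208L in both 2151R (difference -3.40, SE 0.18, adjusted p = 6e-09) and 2225L (-2.59, SE 0.24, adjusted p = 5.1e-06). Etv1, an ETS transcription factor, was also lower in both, with differences of -1.41 (adjusted p = 0.0014) and -3.12 (adjusted p = 5.1e-05).

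**Figure D5:**
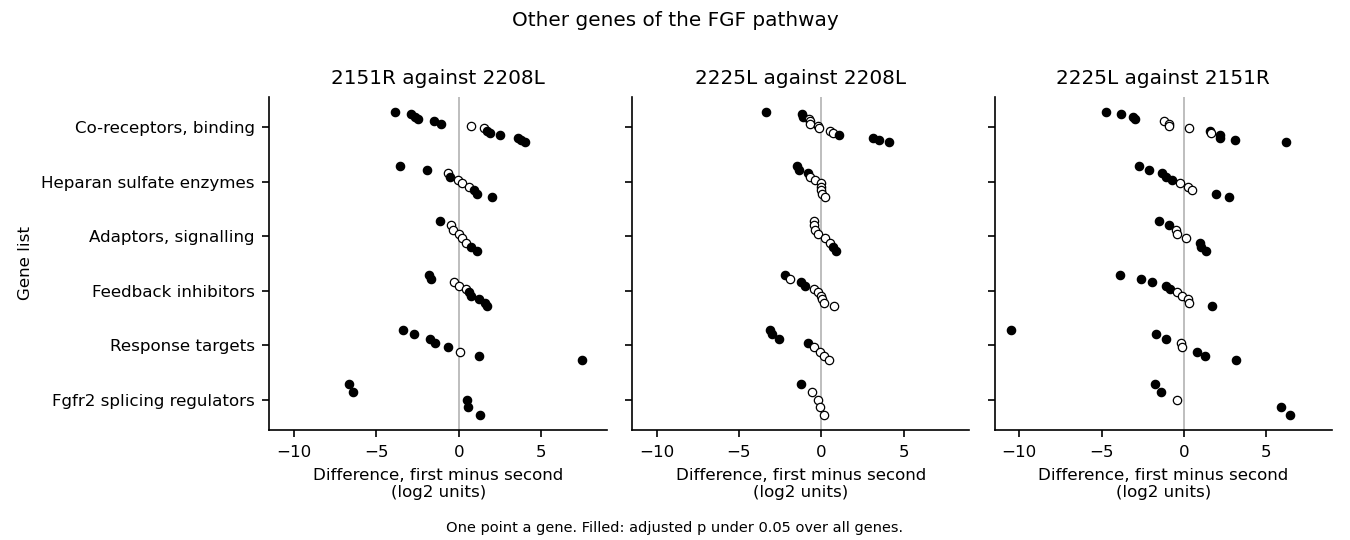
Difference in mean log2 value for the listed pathway genes by role, in the 3 comparisons between models; each point is 1 gene, and filled points passed an adjusted p of 0.05. In 2151R, Esrp1 (-6.68) and Esrp2 (-6.45) lie lowest and Fosl1 (7.50) highest, against 2208L, while Esrp1 and Esrp2 lie at -0.23 and -0.54 in 2225L against 2208L.

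Some genes followed a member closely over the 15 tumours. Likeness was measured as Pearson's r, and since the tumours fall by model, a high r partly records which model a tumour belongs to. The genes most like Fgfr2 were the basal keratin gene Krt5 (r = 0.951) and the homeobox gene Irx4 (0.949), and those most like Fgfr4 were the developmental transcription factors Six2 (0.958) and Dmrt3 (0.945). Fgfr1 was most like Ccser2 (0.964) and Tmem127 (0.95), and Fgfr3 like Piwil2 (0.969) and Usp21 (0.965). Among ligands, Fgf2 was most like Sec23a (0.959) and Ccn4 (0.944), and Fgf1 like Rasgrp2 (0.888) and Zbtb7c (0.884). The lymphangiogenic factor gene Vegfd was among the top pair for both Fgf7 (0.945, with Ablim3 at 0.941) and Fgf10 (0.939, with Fyb2 at 0.947), and Fgf18 was most like Hpgd (0.89) and Clec14a (0.876).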

How the data were processed

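Polyadenylated RNA of 15 tumours was sequenced, per the labels' protocols. The submitters' processing notes name STAR, Salmon and the mm10 build, with no role or order. The log2 values deposited by the authors cover 17271 genes in 1 table, whose name points to log2 values set against a median; values ran from -14.55 to 13.11, and 4.21% of genes had a value shared by 2 or more samples. Read counts were not used here, so the depth behind each value is unknown and no counting error is given. All sample columns were used, and the titles gave each sample's model.

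From these values limma 3.58.1 (R 4.3.3; lmFit, contrasts.fit, eBayes without a trend) was fitted to all genes with a mean for each of 4 models, and separately to the 4 PBS and 3 3day nt samples of 2208L. The test was two-sided, adjusted by Benjamini-Hochberg over all genes and called at an adjusted p under 0.05 with no minimum fold. T11, with 1 sample, was set beside the range of other models. The fit was checked on simulated data. Positions and promoter windows came from RefSeq GRCm38.p6, and overlapping genes and the further gene starts from GENCODE. The 9 genes, the pathway and marker lists and the tests were chosen with earlier results of these data known. Pathway genes were named by a rule: in each list, the 2 with the largest absolute difference between 2151R and 2208L and the 1 with the largest between 2225L and 2208L. For each of the 9 genes the 2 with the highest Pearson correlation were named too. Other genes are given as counts. Nudt6, Spry1, Il17rd, Flrt1, Fgfrl1 and Fgfbp1 are named too and fall outside this rule. Alternatives were other normalizations, variance models, gene filters, sample subsets, the library prefix as a covariate, and each sample left out in turn.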

Additional observations from a re-analysis of the deposited data

Results flagged for a closer look

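Among 60 groups of 4 to 10 samples (30 named genes in 2151R and in 2208L), 4 had a sample whose gap to the next was large for the whole range of the group by Dixon's 95% criterion, where chance gives about 1 in 20, or 3.0 groups. In 2151R, replicate 2 stood at 0.73 for Fgf2, with the other 3 samples at -0.23 to -0.10. The same tumour stood at 3.19 for Fgf18, with the others at -0.10 to 0.09. Replicate 3 of 2151R, which was high in muscle markers, stood at 1.86 for Fgf13, with the others at -0.25 to -0.20. Replicate 1 of 2208L, the only tumour of that model with the prefix ROSEN, stood at -1.50 for Fgf11, with the others at -0.52 to 0.21.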

How the results depend on the processing

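No paired analysis was possible because no replicate number in the titles links samples of different models. Depth is unknown, and 2225L with 2 samples and T11 with 1 limit the precision most. Fgfr2 and Fgfr4 kept their calls in all 24 alternatives of 2151R against 2208L, Fgfr2, Fgfr3 and Fgf2 in all 22 of 2225L against 2208L, and Fgfr3 and Fgf2 in all 18 of 2225L against 2151R. Fgf7 kept its call in 18 of 24, Fgf10 in 12 of 24, Fgf18 in 23 of 24 and Fgf1 (2225L against 2208L) in 11 of 22; the cause was not tested. With sample weights, 1 of the 9 genes was lower in 2225L than in 2208L (958 genes higher and 1200 lower in all), 1 was higher in 2225L than in 2151R (2529 and 2723), and 3 were higher and 2 lower in PBS than in 3day nt (5938 and 5754). A minimum of 1 log2 unit left 2585 genes higher and 2566 lower in 2151R against 2208L, and 0 of the 9 genes, 1206 higher and 1002 lower in all, in PBS against 3day nt. Fitting 2225L and 2151R alone gave 2 of the 9 genes lower. Among samples titled NT, nt or PBS, with T11 and both 2225L samples kept whatever their titles, 1 of the 9 genes and 2658 in all were higher in 2151R than in 2208L. Without both muscle-high 3day nt tumours, an alternative chosen after seeing the data, 0 of the 9 genes were higher in PBS, with 76 genes higher and 22 lower in all. With no minimum distance, T11 lay above the 2208L range for 4 of the 9 genes. With each sample left out, the 9 genes gave 2 to 4 higher in 2151R than in 2208L, 2 to 3 higher and 2 to 3 lower in 2225L than in 2208L, 2 to 3 higher and 1 to 2 lower in 2225L than in 2151R, and 1 to 2 higher and 0 to 1 lower in PBS. Over all genes these fits gave 1362 to 3988 higher and 1017 to 3111 lower in PBS, beside 3007 and 2857 with all samples. The differences that changed sign were of genes not called. In 2151R against 2208L these were Fgfr3 at -0.01 (centred on sample medians), -0.02 (quantile normalization), -0.05 (weights) and -0.04 (without muscle-high samples), with -0.01 to 0.13 when single samples were left out, Fgf2 at -0.15 (weights) and -0.24 (NT, nt or PBS), with -0.06 to 0.26 when single samples were left out, Fgfr1 at -0.04 (weights, and NT, nt or PBS) and Fgf11 at -0.07 (NT, nt or PBS). In 2225L against 2208L they were Fgf10 at 0.01 (quantile) and 0.14 (prefix), and Flrt2 at 0.02 (prefix), and with single samples left out Gab1 ran from -0.20 to 0.61, Fgf11 from -1.07 to 0.11 and Frs2 from -1.09 to 0.29. In 2225L against 2151R they were Dusp4 at 0.15 (quantile), Fgf18 at 0.13 (NT, nt or PBS) and Sos1 at -0.02 (without muscle-high samples), and with single samples left out they ran from -0.23 to 0.04, -0.92 to 0.18 and -0.02 to 0.27. In PBS against 3day nt they were Fgf2 at -0.16 (weights), Fgf1 at 0.09 and Fgf18 at 1.35 (without both muscle-high tumours), and Fgf18 ran from -1.07 to 0.22 with single samples left out, at 0.22 and 0.06 without replicates 6 and 8.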

Other observations

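The T11 tumour combined its high Fgf2 and Fgfr1 with high values of some feedback inhibitors of the pathway. Of 10 measured, 4 lay at least 1 log2 unit above the highest 2151R sample (8.88% of all genes did) and none as far below the lowest. Against 2208L 3 lay as far above the highest sample (10.4% of all genes) and none below, so most of the 10 lay within 1 unit of either range. The genes named next were chosen after their values were seen. Spry1, which encodes a Sprouty inhibitor of receptor tyrosine kinase signalling, stood at 2.42 in T11, beside -0.29 to 0.16 in 2151R and -0.34 to 0.38 in 2208L. Il17rd, the gene of the FGF receptor inhibitor also known as Sef, stood at 2.73, beside -1.08 to -0.27 and -1.72 to -0.51. Flrt1, which encodes a membrane protein of the same family as Flrt2, stood at 6.15, beside -1.04 to 0.73 and -1.98 to 0.50. The intracellular homologue Fgf11 stood at 2.13, beside -0.44 to 0.22 and -1.50 to 0.21. These values come from 1 tumour and have no replicate check.

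Fgfrl1, a receptor-like protein that binds FGF ligands and lacks the kinase domain, also chosen after its values were seen, was lower in 2151R than in 2208L (difference -2.92 log2 units, SE 0.22, adjusted p = 1.6e-07 by limma) and higher in 2225L than in 2151R by 2.21 (SE 0.31, adjusted p = 7e-05). Fgfbp1, a secreted carrier of FGF ligands, was higher in 2225L than in 2208L by 3.52 (SE 0.90, adjusted p = 0.00888) and than in 2151R by 6.21 (SE 0.98, adjusted p = 0.00019). Its values included repeats shared between samples, and its call against 2208L was lost without 2225L replicate 2.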
